A study of Mus musculus with 8 samples.

Results

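A set of 10 genes that mark group 2 innate lymphoid cells (ILC2), or the cytokine signals they send and receive, were followed across 8 arrays of injured muscle. The members were listed by name as Gata3, Klrg1, Il17rb, Il7r, Rora, Icos, Il5, Il13, Ptgdr2 and Il4ra, out of 19752 genes that had a probe set with exactly 1 gene symbol. The tissue was whole tibialis anterior muscle of male C57BL/6 mice, 99 weeks old per the sample labels and 22 months old per the series text, taken 8 days after cryoinjury, in which a probe of nitrogen-chilled metal was held against the muscle for 8 s. The treated group (4 arrays) came from mice given 2 µg of recombinant IL-33 (rIL-33), an alarmin cytokine, into the peritoneal cavity on the day before and again on the day after injury, and the controls (4 arrays) carry the treatment label PBS. All mice of both groups were injured. Within each treatment, the first 2 replicates are labelled C57BL/6 for genetic background and the other 2 are labelled WT, and the sources used here do not say how these differ. Nor do they say whether each array came from its own mouse, so the p-values rest on a spread between arrays that may be technical.

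ILC2 are tissue lymphocytes without rearranged antigen receptors that respond to alarmins such as IL-33, IL-25 and thymic stromal lymphopoietin by secreting the interleukins IL-5 and IL-13. Their development rests on the transcription factors GATA3 and RORα and on IL-7, and their cytokines recruit eosinophils and act on macrophages and stromal cells through the IL-4 receptor α chain. None of the 10 genes belongs to ILC2 alone: T cells share Gata3, Il7r and Icos, NK cells and activated T cells share Klrg1, and Rora and Il4ra are used by many cell types.

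All values are log2 of the deposited intensity unless said otherwise, and differences are rIL-33 minus PBS. In whole muscle, fewer cells of a type and less RNA per cell cannot be told apart. Genes with a mean below the 25th percentile of all genes (log2 6.65, intensity 100.4) were set aside as dim before testing, which left 14814. The arrays differed strongly by background label, with 1392 of the 14814 genes past an adjusted p of 0.05 in limma between WT-labelled and C57BL/6-labelled arrays. No member was past that threshold for the label. Label differences, WT minus C57BL/6, were 0.53 for Il4ra (limma adjusted p = 0.0720), -0.38 for Il7r (limma adjusted p = 0.151) and 0.29 for Il13 (limma adjusted p = 0.0653), and smaller for the other members tested. The 8 skeletal muscle genes listed as an identity check, Acta1 and Ckm among them, were all above the dim threshold, with a summed intensity of 85463 to 95075 on rIL-33 arrays and 79020 to 92310 on PBS arrays. Of the lymphocyte markers with a value, 10 of 13 T cell genes and 10 of 12 NK and group 1 ILC genes reached it, while Cd3d, Trat1, Cd40lg, Klrb1c and Klra8 did not.

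With rIL-33, the lymphocyte genes Klrg1, Gata3 and Il17rb were higher on all 4 arrays than on any PBS array, Rora and Il7r were higher on average, and the values of Icos, Il13, Ptgdr2, Il5 and Il4ra overlapped between the groups. None of the members passed the threshold: of the 9 tested, 0 had a limma p under 0.05 after adjustment over the 14814 genes, where 0.00675% of all genes tested (1 gene, Retnla) did. At an unadjusted limma p under 0.05 in the fit without the dim filter, 4 of the 10 were higher (Klrg1, Gata3, Il17rb and Rora) and 0 were lower, against 3.4% of all 19752 genes higher and 4.34% lower. With the background label as a block, Il7r joined them, which made 5. In that fit 1174 of the 14814 genes tested were higher and 1070 lower at an unadjusted limma p under 0.05. Without the block these numbers were 651 and 776. Groups without overlap were seen in 3 of 10 members, all higher, and in 0 lower, against 1.96% and 1.93% of the 19752 genes (2.44% and 2.13% of the 14814 tested). The median difference over the 10 members was 0.25, with 7 higher and 3 lower, beside a median of -0.0055 over the genes tested.

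**Figure D1:**
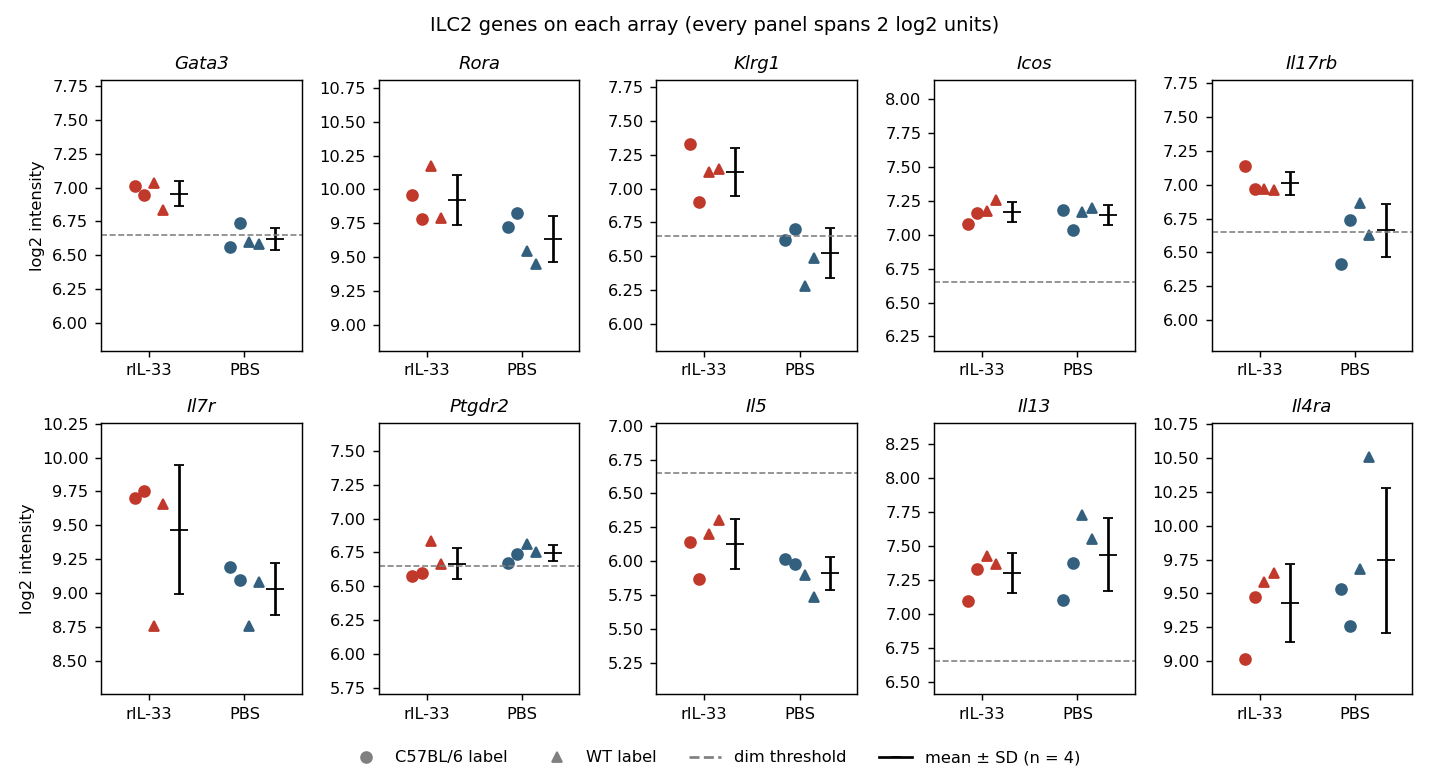
Log2 intensity of each of the 10 genes on every array, with rIL-33 left of PBS in each panel; circles are C57BL/6-labelled and triangles WT-labelled arrays, the black mark is the mean with SD over 4 arrays, and the dashed line is the dim threshold of 6.65. The groups are apart for Gata3, Klrg1 and Il17rb, whose PBS values straddle the dim threshold, while 1 rIL-33 array of Il7r (8.76) lies with the lowest PBS array.

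Several of these signals lay close to background. As a yardstick, 1194 olfactory and vomeronasal receptor genes, most of which muscle is not known to use, had a median of 5.10 on rIL-33 arrays and 5.10 on PBS arrays, with 95th percentiles of 6.85 and 6.89. Probe sets differ in how brightly they bind, so this range only marks where signal without a transcript can lie. Il7r, Rora and Il4ra were far above it, and Il13 (7.30 with rIL-33, 7.44 with PBS) and Icos (7.17 and 7.15) lay just above its 95th percentile in both groups. Klrg1, Gata3 and Il17rb were above the 95th percentile with rIL-33 and below it with PBS. Il5 and Ptgdr2 lay below it in both groups. For Klrg1, 3.10% of the panel genes were as bright or brighter with rIL-33 and 10.1% with PBS, and for Il5 these shares were 16.7% and 23.3%. The panel itself had a median difference of -0.0042 between the treatments. Single arrays varied more, with a panel median from 4.95 (PBS replicate 1) to 5.31 (PBS replicate 3). In both groups the panel median was higher on the WT-labelled arrays than on the C57BL/6-labelled ones.

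**Figure D2:**
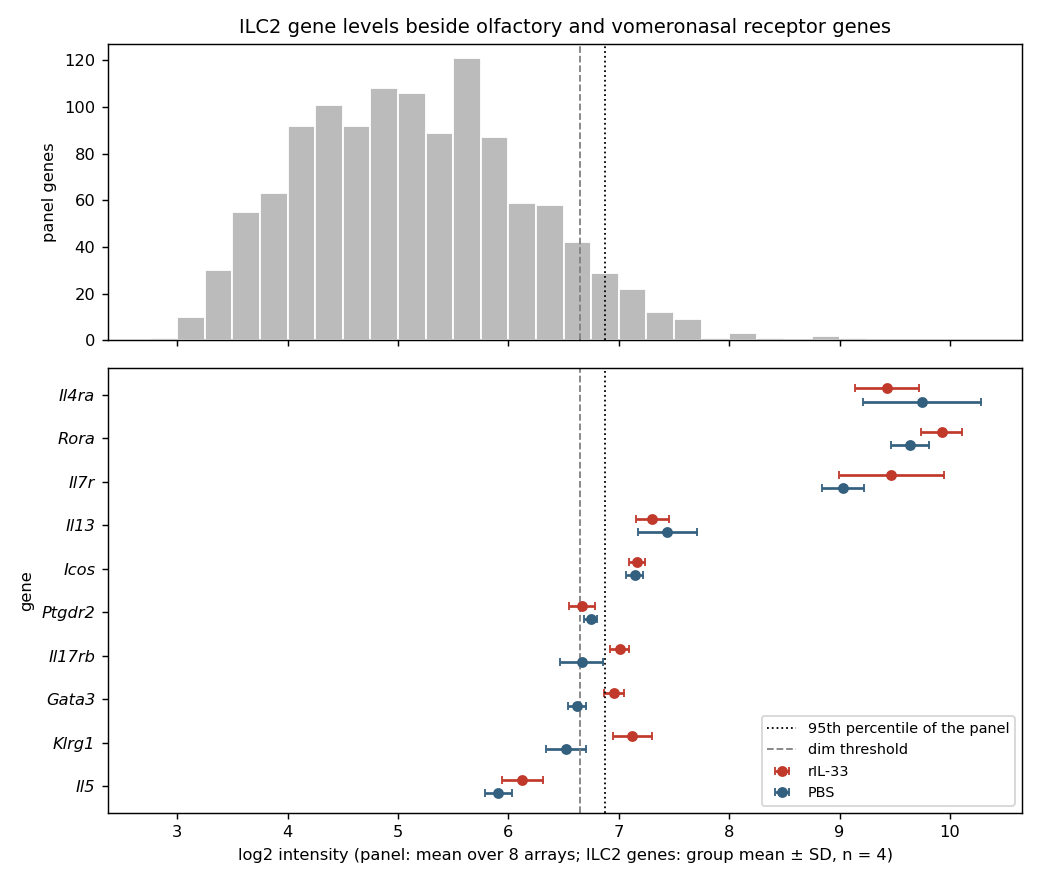
Top, number of olfactory and vomeronasal receptor genes (1194) by mean log2 intensity over 8 arrays; bottom, mean and SD of each ILC2 gene in rIL-33 (red) and PBS (blue) muscles, 4 arrays each, with the dim threshold (dashed) and the panel's 95th percentile of 6.87 (dotted). Klrg1, Gata3 and Il17rb cross the dotted line between the groups, Il5 stays left of it, and Il7r, Rora and Il4ra lie far to its right.

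Of the transcription factors, Gata3 is required for ILC2 and T helper 2 cells and directs the type 2 cytokine genes. Gata3 read 7.01, 6.94, 7.03 and 6.83 on rIL-33 arrays 1 to 4, against 6.56, 6.74, 6.60 and 6.58 on PBS arrays 1 to 4. Every rIL-33 array was above the highest PBS array, by a gap of 0.09, and only 1 PBS array reached the dim threshold. The difference was 0.34 (SE 0.08, 95% interval 0.17 to 0.50, a 1.26-fold ratio of geometric means), with a limma adjusted p of 0.489. It was nearly alike within the labels, at 0.33 for C57BL/6 and 0.34 for WT.

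Rora encodes RORα, a nuclear receptor needed to form ILC2 and also active in muscle, liver and brain. Rora read 9.96, 9.78, 10.17 and 9.79 with rIL-33, against 9.72, 9.83, 9.55 and 9.45 with PBS. The groups overlapped through PBS replicate 2, which lay above 2 of the 4 rIL-33 arrays. The difference of 0.29 (SE 0.11, 95% interval 0.04 to 0.54, limma adjusted p = 0.489) was 0.09 within the C57BL/6 label and 0.48 within the WT label. A limma test of the treatment by label interaction gave an unadjusted p of 0.0700 and an adjusted p of 0.999.

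Klrg1, an inhibitory receptor for cadherins on mature ILC2, NK cells and effector T cells, showed the largest difference of the 10. Klrg1 read 7.33, 6.90, 7.12 and 7.15 with rIL-33, against 6.62, 6.70, 6.28 and 6.49 with PBS. The lowest rIL-33 array was 0.20 above the highest PBS array. On the intensity scale the geometric means were 139.5 with rIL-33 and 92.0 with PBS, a 1.52-fold ratio (95% interval 1.27 to 1.81). On the log2 scale Klrg1 differed by 0.60 (SE 0.11, limma adjusted p = 0.489), 0.45 within the C57BL/6 label and 0.75 within the WT label. Both Klrg1 and Gata3 had PBS means under the dim threshold (6.52 and 6.62), so they were tested only because their rIL-33 arrays lifted the mean.

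Icos, a costimulatory receptor of the CD28 family found on ILC2 and T cells, did not follow this pattern. Icos read 7.08, 7.16, 7.17 and 7.26 with rIL-33, against 7.18, 7.03, 7.17 and 7.19 with PBS. The values were interleaved, with a difference of 0.02 (SE 0.07, 95% interval -0.14 to 0.18, limma adjusted p = 0.951). The gene of its ligand, Icosl, picked out once values were known, had a difference of -0.26 (SE 0.09, limma adjusted p = 0.489).

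Il17rb, the receptor subunit through which ILC2 sense IL-25, was the third gene whose groups were apart. Il17rb read 7.14, 6.97, 6.97 and 6.96 with rIL-33, against 6.41, 6.74, 6.87 and 6.63 with PBS. The other 3 rIL-33 values, beside replicate 1, lay within 0.01 of each other, and the PBS values were spread more widely (SD 0.08 with rIL-33 and 0.19 with PBS, n = 4 each). The difference was 0.35 (SE 0.10, 95% interval 0.12 to 0.57, limma adjusted p = 0.489), 0.47 within the C57BL/6 label and 0.22 within the WT label.

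Il7r, the IL-7 receptor α chain that maintains innate lymphoid and T cells, was well above background but uneven among the rIL-33 arrays. Il7r read 9.70, 9.76, 8.76 and 9.65 with rIL-33, against 9.19, 9.10, 8.76 and 9.08 with PBS. On 3 rIL-33 arrays Il7r was above the whole PBS range, while rIL-33 replicate 3 lay at the level of the lowest PBS array. The difference was 0.44 (SE 0.20, 95% interval -0.02 to 0.89, limma adjusted p = 0.523). With the background label as a block, the 95% interval was 0.06 to 0.81 (limma adjusted p = 0.288). The difference was 0.58 within the C57BL/6 label and 0.29 within the WT label. Without rIL-33 replicate 3 it was 0.67.

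Ptgdr2 (CRTH2), the prostaglandin D2 receptor of ILC2, T helper 2 cells, eosinophils and basophils, was not higher with rIL-33. Ptgdr2 read 6.58, 6.60, 6.83 and 6.66 with rIL-33, against 6.68, 6.74, 6.82 and 6.75 with PBS. On 3 rIL-33 arrays it was below the lowest PBS array and on the remaining one above the highest. The difference was -0.08 (SE 0.08, 95% interval -0.25 to 0.09, limma adjusted p = 0.781), and -0.13 without rIL-33 replicate 3 or -0.05 without rIL-33 replicate 1. Hpgds, the enzyme that makes the ligand in haematopoietic cells, differed by -0.53 (SE 0.14, limma adjusted p = 0.489). Every rIL-33 array of Hpgds (8.61 to 9.23) was below every PBS array (9.38 to 9.64). Of all genes tested, 2.13% were lower without overlap.

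The effector cytokine genes themselves were near background. Il5, the cytokine of eosinophil growth and survival, read 6.14, 5.87, 6.20 and 6.30 with rIL-33, against 6.02, 5.98, 5.90 and 5.74 with PBS. All 8 values were below the dim threshold, so Il5 was not among the genes tested. Il5 was above the PBS range on 3 rIL-33 arrays, while rIL-33 replicate 2 lay below 3 of the 4 PBS arrays. In the fit without the dim filter the difference was 0.22 (SE 0.11, 95% interval -0.01 to 0.45, limma adjusted p = 0.655 over all 19752 genes), with 0.01 within the C57BL/6 label and 0.43 within the WT label.

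Il13, the cytokine that drives alternative activation of macrophages and mucus and matrix responses, read 7.09, 7.33, 7.43 and 7.37 with rIL-33, against 7.10, 7.37, 7.73 and 7.55 with PBS. No rIL-33 array lay above the PBS range, and in both groups the WT-labelled arrays read higher than the C57BL/6-labelled ones. The median of the olfactory and vomeronasal panel did the same, and a link between them was not tested. The difference was -0.13 (SE 0.13, limma adjusted p = 0.782), and its 95% interval of -0.42 to 0.16 corresponds to ratios between 0.746 and 1.12. Without PBS replicate 1 it was -0.25 and without PBS replicate 3 it was -0.04.

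Il4ra, the chain shared by the receptors for IL-4 and IL-13, belongs to the cells that receive the type 2 signal. Il4ra read 9.01, 9.47, 9.58 and 9.65 with rIL-33, against 9.54, 9.26, 9.68 and 10.50 with PBS. PBS replicate 4 stood alone at the top and rIL-33 replicate 1 alone at the bottom. The difference was -0.32 (SE 0.24, 95% interval -0.85 to 0.21, limma adjusted p = 0.691), -0.06 without PBS replicate 4 and -0.48 without PBS replicate 2. Its partner chain gene Il13ra1 differed by -0.42 (SE 0.17, limma adjusted p = 0.502), with 9.26 to 9.87 on rIL-33 arrays and 9.79 to 10.50 on PBS arrays.

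**Figure D3:**
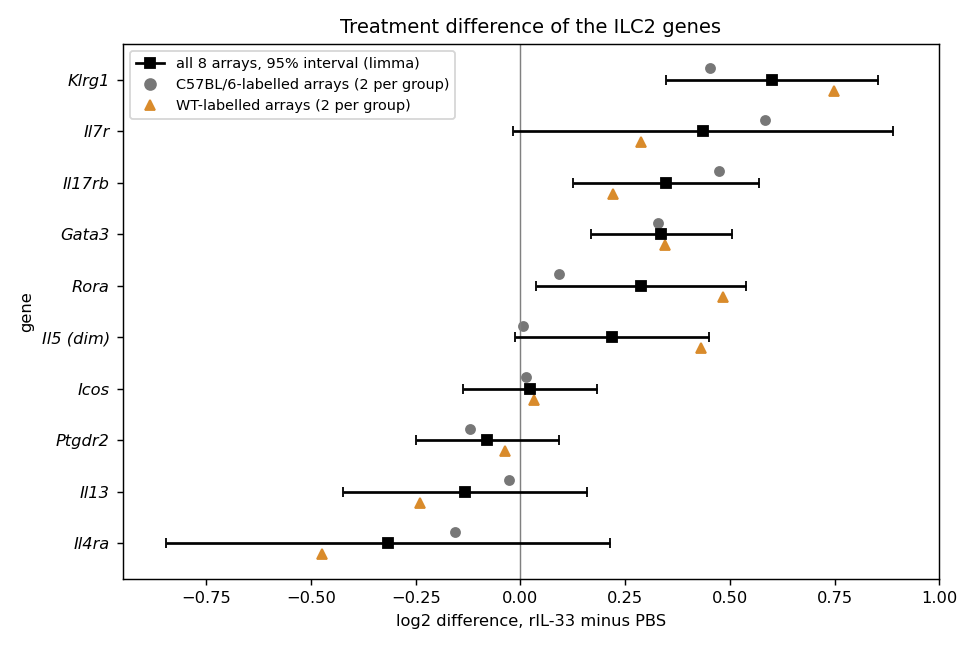
Log2 difference, rIL-33 minus PBS, for each ILC2 gene over all 8 arrays (squares, with the 95% interval of the limma fit) and within the C57BL/6-labelled (circles) and WT-labelled arrays (triangles), each with 2 arrays per group. Intervals of Klrg1, Il17rb, Gata3 and Rora lie above 0 before adjustment, and both label values of Gata3 nearly coincide (0.33 and 0.34).

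Il13 and Il5 sit in the type 2 cytokine locus on mouse chromosome 11, where Il4 adjoins Il13 and the gene Rad50 and the pseudogene Rps2-ps4 lie between Il13 and Il5. Because Gata3 was higher on every rIL-33 array while Il13 was not, the promoters of both cytokines are shown beside those of Gata3 and Il17rb, whose groups were apart. The sequences are RefSeq's (GRCm38.p6) and run 5′ to 3′ on the gene's strand from 250 bases before the transcription start to 50 after it. Capitals mark AGATAA, a form of the GATA motif, or its reverse complement.
Gata3 (chr2:9878551-9878850, minus strand): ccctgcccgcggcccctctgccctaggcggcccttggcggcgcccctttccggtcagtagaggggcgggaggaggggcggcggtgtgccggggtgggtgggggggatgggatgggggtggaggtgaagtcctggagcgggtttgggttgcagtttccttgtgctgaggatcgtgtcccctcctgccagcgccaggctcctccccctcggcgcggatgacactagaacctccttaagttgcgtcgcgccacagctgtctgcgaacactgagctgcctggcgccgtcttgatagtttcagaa
Il17rb (chr14:30008847-30009146, minus strand): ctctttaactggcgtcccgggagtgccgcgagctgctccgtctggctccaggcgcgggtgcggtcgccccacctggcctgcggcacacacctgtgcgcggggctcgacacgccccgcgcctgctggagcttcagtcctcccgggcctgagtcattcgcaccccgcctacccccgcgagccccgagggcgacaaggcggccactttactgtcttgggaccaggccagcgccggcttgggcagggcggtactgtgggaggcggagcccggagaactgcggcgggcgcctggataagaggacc
Il13 (chr11:53634653-53634952, minus strand): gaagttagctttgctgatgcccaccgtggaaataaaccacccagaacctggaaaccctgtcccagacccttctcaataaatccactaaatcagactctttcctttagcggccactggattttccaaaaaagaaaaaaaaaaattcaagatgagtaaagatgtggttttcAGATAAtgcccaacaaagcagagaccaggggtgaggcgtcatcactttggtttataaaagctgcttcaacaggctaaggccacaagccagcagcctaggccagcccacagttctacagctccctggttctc
Il5 (chr11:53720544-53720843, plus strand): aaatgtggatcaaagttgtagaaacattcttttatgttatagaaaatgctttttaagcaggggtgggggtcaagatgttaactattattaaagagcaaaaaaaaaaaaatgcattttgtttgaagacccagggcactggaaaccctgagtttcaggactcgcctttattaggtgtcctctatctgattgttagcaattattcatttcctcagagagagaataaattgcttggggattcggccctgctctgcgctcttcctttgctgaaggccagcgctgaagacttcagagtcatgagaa
Only the letters AGATAA were searched, on both strands, and other forms of the GATA motif were not. Among the 8 members with a promoter entry, only Il13 held AGATAA, at bases 170 to 175 of the window. In all, 11.2% of the 32851 promoters in the table held AGATAA. The letters AGGTCA, bound by ROR receptors, were in none of the 8 member promoters and in 16.3% of all. Klrg1 and Icos had no entry. A match describes letters in this window only.

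A wider set of ILC2 genes was balanced between higher and lower. Of a list of 30 further ILC2 genes, 26 had a value and 22 were tested, with 0 past the adjusted threshold in limma in either direction. The list's median difference was -8.57e-05, with 11 higher and 11 lower. At an unadjusted limma p under 0.05, 1 of the list was higher and 2 were lower (651 and 776 of all 14814 genes tested). The higher gene was Zbtb16, named after its value was seen, which encodes PLZF, a factor of ILC precursors that muscle also expresses. Zbtb16 was at 10.54 with rIL-33 and 10.07 with PBS (difference 0.47, SE 0.10, limma adjusted p = 0.489). Its groups did not overlap, and 2.44% of all genes tested were higher in the same way. The lower genes were Hpgds and Thy1, a surface protein of ILC2, T cells and fibroblasts, which differed by -0.47 (SE 0.15, limma adjusted p = 0.489). Il4, the neighbour of Il13, differed by 0.03 (SE 0.13) and Nmur1, the neuromedin U receptor of ILC2, by 0.05 (SE 0.10), both named after their values were seen. Il9, Il18r1, Ccr8 and Csf2 were dim, and Il1rl1, the IL-33 receptor gene, Areg, Tcf7 and Ly6a were not analysed here.

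Upstream of ILC2, 12 of 15 genes of alarmins and their signal transducers were tested and 0 passed the adjusted threshold in limma. At an unadjusted limma p under 0.05, 1 was higher and 4 were lower (651 and 776 of all 14814 genes tested), with a list median of -0.15. Il33 itself was at 8.15 ± 0.05 with rIL-33 and 8.43 ± 0.35 with PBS (SD, n = 4 each), a difference of -0.28 (SE 0.15, limma adjusted p = 0.557). The co-receptor gene Il1rap differed by -0.22 (SE 0.14) and the adaptor gene Myd88 by -0.41 (SE 0.15, limma adjusted p = 0.489). Hpgd, which degrades prostaglandins, differed by -0.50 (SE 0.15, limma adjusted p = 0.489).

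Downstream, 18 of 24 genes of the response to IL-4, IL-5 and IL-13 were tested, and 1 passed the threshold, higher, while 0 were lower. This gene was Retnla, which encodes the secreted protein RELMα that IL-4 and IL-13 induce in macrophages. Retnla read 11.03, 10.06, 10.74 and 10.68 with rIL-33, against 7.78, 8.56, 7.55 and 7.65 with PBS, a difference of 2.74 (SE 0.24, limma adjusted p = 0.00568). Of the other 17 genes tested, 8 were higher and 9 lower, with a median difference of -0.02.

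Markers of T cells and NK cells, which share several of these genes, ran mostly lower. All 10 T cell genes tested, of 14 listed, were lower, with a median of -0.35 and 0 past the adjusted threshold. At an unadjusted limma p under 0.05 were 4 of them, beside 776 lower and 651 higher of all 14814 genes tested. Cd3e, a T cell receptor chain, was at 7.77 ± 0.24 with rIL-33 and 8.11 ± 0.32 with PBS (SD, n = 4 each), and Cd3g at 7.07 ± 0.63 and 7.95 ± 1.00. The summed intensity of the 13 T cell genes with a value was 1383 to 1870 on rIL-33 arrays and 1670 to 2682 on PBS arrays. Of the 10 NK and group 1 ILC genes tested, 9 were lower and 1 higher, with a median of -0.23. At an unadjusted limma p under 0.05, 2 were lower (Klrd1 and Eomes) and 0 higher. Klrd1 (6.48), Eomes (6.61), Klrk1 (6.50) and Ncr1 (6.63) had rIL-33 means under the dim threshold. They were tested only because their PBS arrays lifted the mean, as was the T cell gene Themis (6.49 with rIL-33, 6.95 with PBS). Eomes, a transcription factor of NK cells, differed by -0.57 (SE 0.19) and Nkg7, a granule protein gene, by -0.80 (SE 0.38). Their list summed to 1291 to 1941 on rIL-33 arrays and 1512 to 2771 on PBS arrays.

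Klrg1 and Gata3, which NK and T cells also use, were higher, while most NK and T cell markers tested were lower. Klrg1 and Gata3 passed the dim filter only through rIL-33 arrays, and Eomes, Klrd1, Klrk1, Ncr1 and Themis only through PBS arrays. The filter thus favours such a contrast, and the source of the Klrg1 and Gata3 signal was not tested. The regulatory T cell list, of which 6 of 7 genes were tested, had 3 higher and 3 lower and a median of -0.02. Foxp3 differed by -0.05 (SE 0.12), and Ikzf2, shared by regulatory and other lymphocytes, by 0.24 (SE 0.10, limma adjusted p = 0.507). Of the eosinophil markers, 3 of 10 were tested, with 2 higher and 1 lower. The lower one, Siglecf, was added with the values known, to complete the 3. Its groups overlapped, with a difference of -0.03 (SE 0.14, limma adjusted p = 0.968). Ccr3 differed by 0.38 (SE 0.09) and Alox15 by 0.50 (SE 0.16), both without overlap (2.44% of all genes tested were higher without overlap) and with limma adjusted p = 0.489 for each. Ccr3 was at 6.92 with rIL-33 and at 6.55 with PBS, under the dim threshold, so it too was tested only through its rIL-33 arrays. The eosinophil granule genes Epx, Prg2 and Prg3 and the receptor gene Il5ra were below the dim threshold, and the 8 genes with a value summed to 822 to 993 on rIL-33 arrays and 705 to 920 on PBS arrays. Mast cell and basophil genes, 6 of 10 tested, had a median of -0.20 with 2 higher and 4 lower. The part of these cell types in the differences of the 10 genes was not tested.

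**Figure D4:**
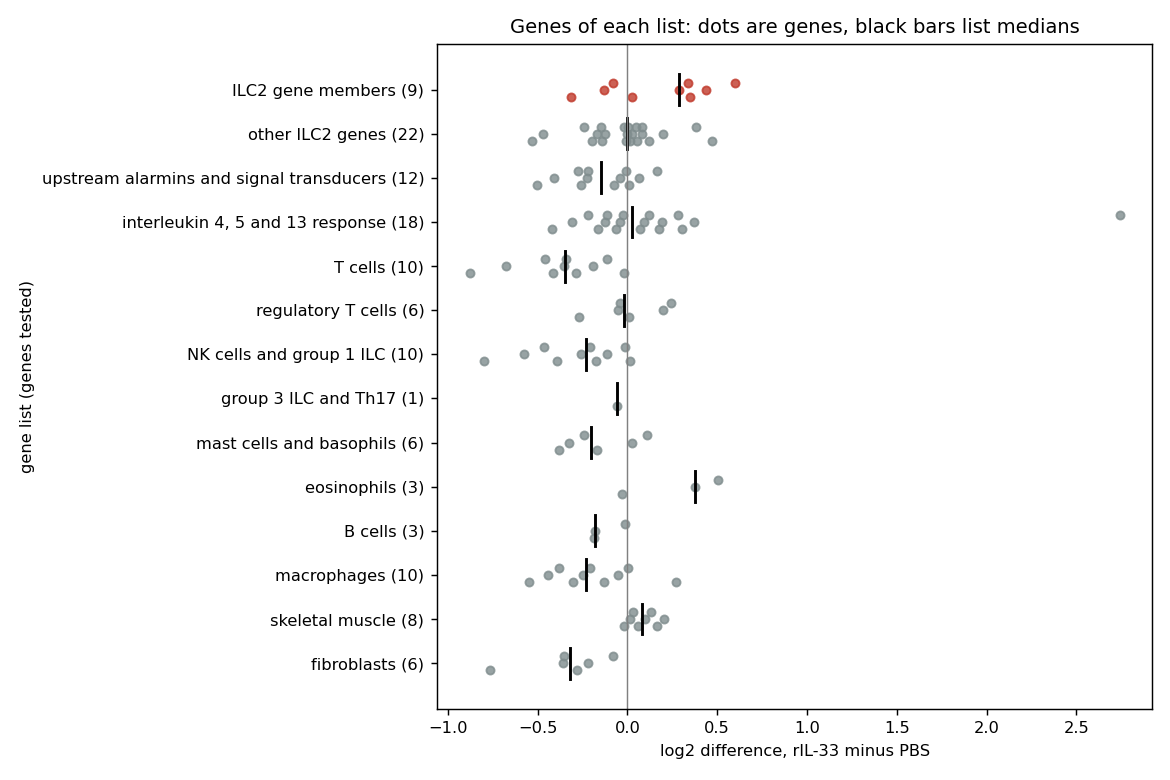
Log2 difference, rIL-33 minus PBS, of the tested genes of each list (dots) with the list median (black bar) and the number of genes tested in brackets. The ILC2 members (red, median 0.29 over the 9 tested) spread on both sides of 0, the T cell genes all lie below 0, and the dot at 2.74 is Retnla.

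Across the 8 arrays the members did not share 1 profile. After removal of the group means, Gata3 had its strongest correlation, an inverse one, with Icos (Pearson r = -0.89). For Gata3, r was 0.72 with Rora, 0.42 with Il17rb, 0.36 with Klrg1 and 0.23 with Ptgdr2. It was -0.51 with Il4ra, -0.35 with Il7r, -0.08 with Il13 and -0.04 with Il5. Klrg1 and Il17rb had r = -0.15, and Il7r and Ptgdr2 had r = -0.96. These correlations describe 8 arrays that share the label difference, and are given without a test. The genes tested whose levels were most like those of a member included few known as lymphocyte genes. For Rora the closest were Ryr1, the calcium release channel of muscle (r = 0.999), Ikzf2 (0.992) and Fbxw5 (0.991). For Gata3 they were Rprd1a (0.975), Ldb3, a Z-disc gene of muscle (0.973), and Ppargc1a, a coactivator of mitochondrial genes (0.972).

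The closest to Klrg1 were Alkbh8 (0.979), Cgnl1 (0.976) and Ttc17 (0.976), and to Il17rb Znhit6 (0.974), Usp16 (0.963) and Mtdh (0.953). Il7r was closest to Mfge8, a secreted bridge between phagocytes and apoptotic cells (0.986), then to Dlg2 (0.965) and Tm4sf19 (0.949). Il13 was closest to Sox15 (0.994) and the collagen genes Col27a1 (0.993) and Col7a1 (0.990), and Il4ra to Fkbp15 (0.988), Prg4 (0.987) and Pgap6 (0.982). Icos was closest to Pigm (0.961), Plcb1 (0.952) and Chrna7 (0.937), and Ptgdr2 to 4931431C16Rik (0.968), Tmem121 (0.962) and Gldc (0.956). Each of these is among the 3 highest of 14813 correlations over 8 arrays, so its size reflects that choice.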

How the data were processed

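Total RNA of 8 muscle samples was extracted with TriZol, labelled with biotin and hybridised to Affymetrix Mouse Gene 1.0 ST arrays, 1 sample per array. Per the submitters' processing notes, the authors made the deposited intensities with RMA and Affymetrix Power Tools, whose versions the sources used here do not give. RMA subtracts background, brings all arrays to 1 distribution and combines the probes of a set. Background that remains in dim signals makes their ratios smaller. The values were linear and log2 was taken. Of 24922 probe sets, 21425 had exactly 1 gene symbol in the platform annotation, 1399 had several and 2098 had none listed. The probe set of highest mean was used per gene, and each of the 10 members had 1. The dimmest 25% of genes by mean were set aside, 4938 of 19752, which left 14814 tested and 1 member (Il5) untested.

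The treatment contrast was fitted in R 4.3.3 with limma 3.58.1 (lmFit, then eBayes) to all 8 arrays without a block, with Benjamini-Hochberg adjustment over the genes tested and a threshold of 0.05. The script was tested on simulated data. There is no read depth for arrays, so precision is limited by how many there are. The members and lists were chosen with earlier results of these data known, so counts over them are descriptions. Named genes were all members, up to 2 genes of largest difference in each list unless more passed the threshold, Il33, Il1rap, Foxp3, Cd3e, Cd3g and Retnla, and the 3 tested genes closest to each tested member by Pearson correlation. Of the remaining lists, median differences were -0.23 for macrophages (Fcgr1 -0.55, Adgre1 -0.44), -0.18 for B cells (Cd22 -0.19, Cd79b -0.18), -0.32 for fibroblasts (Lum -0.76, Col1a1 -0.36) and 0.08 for skeletal muscle (Mylpf 0.20, Tnnc2 0.16), and the 1 group 3 ILC gene tested, Il17f, differed by -0.06. In the lists described in the text, Cd8b1 differed by -0.68, Tigit by -0.27, Cpa3 by -0.38 and Mcpt4 by -0.33. Alternatives were quantile normalization, other dim filters, eBayes with trend and robust, a block for the replicate number or for the background label, the arrays of 1 label only, the average over probe sets (without effect on the members, which have 1 each) and each array left out. Plots used Python 3.11.15 and matplotlib 3.10.9.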

Additional observations from a re-analysis of the deposited data

Results flagged for a closer look

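In each treatment group the highest and lowest array was set against the other 3 with Dixon's criterion, over 20 groups of 4 arrays, of which chance flags about 1 in 20. Il17rb on rIL-33 replicate 1 stood apart as the highest of its group, at 7.14. Il7r on rIL-33 replicate 3 stood apart as the lowest of its group, at 8.76. Icos on PBS replicate 2 stood apart as the lowest of its group, at 7.03.

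The Il5 difference between treatments was larger within the WT-labelled arrays (0.43) than within the C57BL/6-labelled arrays (0.01). The difference of these effects was 0.42, with an unadjusted interaction p of 0.0311 in limma fitted without the dim filter. All 8 Il5 values lay below the dim threshold, and among the genes tested 0 of 14814 passed the adjusted threshold for this interaction, with 473 at an unadjusted p under 0.05.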

How the results depend on the processing

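With 4 arrays per group and dim signals, precision was limited. No member passed the adjusted threshold under any of the 17 alternatives, and why none did was not tested. The limma adjusted p lay between 0.246 and 0.9999 for Gata3 and between 0.204 and 0.9999 for Klrg1. Only 3 members were left to test with a dim filter at the 50th percentile. At an unadjusted p under 0.05 there were 4 members, and 3 to 5 over the alternatives, Il7r being the fifth with quantile normalization, the label as a block or the replicate block (interval 0.18 to 0.69). All members but Icos kept their sign in all of them. The Icos difference was between -0.015 and 0.052 with 1 array left out, and negative without rIL-33 replicate 4 (-0.0065) or PBS replicate 2 (-0.015). Over all genes tested, 1 passed the threshold, 0 with the replicate number as a block (replicate block), 2 within the C57BL/6 label, 4 within the WT label and 1 to 2 with 1 array left out (2 without rIL-33 replicate 4). Members higher without overlap numbered 3 of 10. They were 5 within the WT label (Gata3, Klrg1, Il17rb, Rora and Il5, where 27.0% of the genes tested did the same) and 3 to 4 with 1 array left out (4 without rIL-33 replicate 2, rIL-33 replicate 3 or PBS replicate 2, where 4.38%, 3.44% and 6.3% of the genes tested did the same). In a count added after the data were seen, 1 was left among members with a PBS mean at or over the dim threshold, Il17rb, against 2.39% of such genes. Members lower without overlap numbered 0, 1 within the C57BL/6 label (Ptgdr2, 19.0% of genes), 2 within the WT label (Il13 and Il4ra, 18.6%) and 0 to 1 with 1 array left out (1 without rIL-33 replicate 3, Ptgdr2, 2.71% of genes). The cause of these changes was not tested. The fits within a label or with 1 array left out also used fewer arrays. Same-numbered arrays did not clearly pair: their deviations from the group means correlated at 0.44, -0.19, 0.43 and 0.54. For rIL-33 replicates 3 and 4 the same-numbered PBS array was the closest. However, rIL-33 replicate 1 correlated best with PBS replicate 2 (0.63) and rIL-33 replicate 2 with PBS replicate 1 (0.31). Replicates 1 and 2 share a label, as do 3 and 4, so this check cannot show whether arrays were paired.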
